A study of Mus musculus with 6 samples.

Results

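The integrated stress response and amino acid genes are 40 mouse genes chosen by symbol from knowledge of the pathway, with earlier results of these data known: regulators around the transcription factor ATF4 (10 genes), genes of endoplasmic reticulum stress (3), enzymes that make amino acids or handle folate-bound carbon (10), amino acid transporters (5) and cytosolic tRNA synthetases (12). All 40 were found among the 24984 gene symbols of the count tables, and all 40 were among the 15663 genes that passed the filter on low counts. The libraries came from E14TG2a mouse embryonic stem cells grown in the serum-free medium N2B27, with total RNA depleted of ribosomal RNA. There were 2 libraries from cells whose METTL3 carries the substitution D395A, placed by CRISPR/Cas9 with homology-mediated end joining (D395A), 2 from a METTL3 knockout line made by CRISPR/Cas9 disruption (KO), and 2 from unmodified cells of the same line (WT). METTL3 is the catalytic subunit of the enzyme that places N6-methyladenosine on RNA, and D395 lies in its catalytic motif. The series was designed to study how this mark and circular RNA interact. The labels name no agent that starves or stresses the cells. The labels name no separate clones, so each mutant genotype cannot be told apart from the history of its line.

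The integrated stress response starts when a kinase that senses amino acid shortage, misfolded protein, heme loss or double-stranded RNA phosphorylates the initiation factor eIF2. General translation then slows, while the mRNA of ATF4 is translated more. ATF4 pairs with C/EBP proteins on composite DNA elements and switches on genes for amino acid uptake, amino acid synthesis and tRNA charging. Growing cells also keep ATF4 active without stress, through mTORC1 signalling, and mouse embryonic stem cells depend strongly on amino acid and folate metabolism. RNA counts do not report on eIF2 phosphorylation or on ATF4 protein.

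Upstream sequences are shown because the members are known mainly as targets of ATF4 and of the endoplasmic reticulum stress factors. RefSeq windows from 250 bases before to 50 bases after a gene start (GRCm38.p6) were matched for 33 members. Cth, Slc7a5, Slc7a3, Cars, Nars, Wars and Lars were not analysed here. The core of the C/EBP-ATF response element (CARE), TGATGNAA, was searched on both strands. It was found in 13 of 33 members (39.4%), against 4.51% of the 27025 genes with a window. The members with a match were Chac1, Trib3, Nupr1, Vldlr, Herpud1, Asns, Pycr1, Slc7a11, Gars, Aars, Iars, Tars and Yars. The members had been collected as genes of this pathway, so the share describes the list and tests nothing. The endoplasmic reticulum stress element, CCAAT followed after 9 bases of any kind by CCACG, was found in 1 member, Hspa5, and in 0.137% of all genes. The core TGACGTGG of an element bound by XBP1 was in none of the 33 windows and in 0.714% of all genes. These motifs do not overlap in any member window. The 250 bases before the start are printed for 6 members, with CARE cores in capitals, or the endoplasmic reticulum stress element in the case of Hspa5. The first 5 share the CARE core and yet differed in their changes in the mutant lines. Hspa5 is the member that matched the endoplasmic reticulum stress element as spelled above. Other spellings of that element were not searched.
Chac1: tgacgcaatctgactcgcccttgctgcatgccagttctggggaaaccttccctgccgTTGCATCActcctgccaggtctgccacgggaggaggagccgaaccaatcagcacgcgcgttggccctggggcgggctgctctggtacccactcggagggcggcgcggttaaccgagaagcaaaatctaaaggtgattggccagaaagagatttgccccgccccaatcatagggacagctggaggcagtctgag
Nupr1: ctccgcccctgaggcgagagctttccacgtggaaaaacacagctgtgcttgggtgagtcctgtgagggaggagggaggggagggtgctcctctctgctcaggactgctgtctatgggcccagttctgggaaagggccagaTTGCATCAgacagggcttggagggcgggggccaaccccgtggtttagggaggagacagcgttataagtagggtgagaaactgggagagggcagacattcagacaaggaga
Asns: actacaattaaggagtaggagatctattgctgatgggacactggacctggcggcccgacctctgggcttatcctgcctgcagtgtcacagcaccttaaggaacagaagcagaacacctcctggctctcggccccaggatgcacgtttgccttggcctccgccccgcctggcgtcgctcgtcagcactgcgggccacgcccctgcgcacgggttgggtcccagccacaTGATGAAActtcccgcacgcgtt
Slc7a11: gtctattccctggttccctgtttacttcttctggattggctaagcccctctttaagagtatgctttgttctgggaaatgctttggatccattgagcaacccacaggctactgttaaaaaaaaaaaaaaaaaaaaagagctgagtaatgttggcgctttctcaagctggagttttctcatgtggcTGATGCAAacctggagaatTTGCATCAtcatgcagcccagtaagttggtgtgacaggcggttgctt
Aars: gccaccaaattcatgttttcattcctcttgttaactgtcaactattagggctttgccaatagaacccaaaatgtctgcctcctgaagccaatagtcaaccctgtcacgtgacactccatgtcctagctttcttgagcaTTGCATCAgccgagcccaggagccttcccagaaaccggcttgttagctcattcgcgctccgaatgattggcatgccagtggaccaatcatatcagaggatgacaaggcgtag
Hspa5: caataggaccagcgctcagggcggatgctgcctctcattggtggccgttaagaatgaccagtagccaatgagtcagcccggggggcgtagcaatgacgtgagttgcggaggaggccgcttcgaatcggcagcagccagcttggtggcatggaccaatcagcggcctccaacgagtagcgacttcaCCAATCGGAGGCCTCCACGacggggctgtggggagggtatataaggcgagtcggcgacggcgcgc
The stretches lie at chr2:119350992-119351241 (plus strand) for Chac1, chr7:126625471-126625720 (minus strand) for Nupr1, chr6:7693210-7693459 (minus strand) for Asns, chr3:50443614-50443863 (minus strand) for Slc7a11, chr8:111033592-111033841 (plus strand) for Aars and chr2:34771840-34772089 (plus strand) for Hspa5. Counted with 0 at the first base of the gene, the cores begin at position -193 in Chac1, -110 in Nupr1 and -23 in Asns. Slc7a11 holds a pair of cores, at -66 and -47 on opposite strands. Aars holds 1 at -112 and another at 9, beyond the printed stretch. The median log2 fold change of the 13 members with a core was -0.35 in D395A against WT and -1.16 in KO against WT. It was -0.32 in D395A and -0.71 in KO for the 20 members without one. A match of letters is not a binding site, and no match says only that these letters are not in this window.

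Levels are given as CPM, counts scaled to library size with trimmed-mean (TMM) factors, and changes as log2 fold changes ± SE of an edgeR quasi-likelihood fit over all genes. A gene is called where its p-value, adjusted over all 15663 genes by Benjamini-Hochberg, is under 0.05. Gene counts totalled 22859491 (D395A replicate 1) to 40476809 (WT replicate 1) per library. The lowest count of any member in a library was 126 in D395A, 43 in KO and 140 in WT. The median SD of the members, relative to the mean, was 5.39% in D395A, 2.92% in KO and 1.94% in WT. The fit shares its estimate of the spread over the groups, so the SEs do not show the larger spread within D395A. Reads outside genes took 37.3% and 33.8% of the file totals in D395A, 31.1% and 22.3% in KO and 30.2% in both WT libraries. Mettl3 itself stood at 21.1 and 23.4 CPM in D395A, 7.82 and 6.16 CPM in KO, against 28.5 and 31.5 CPM in WT, with log2 fold changes of -0.43 ± 0.10 in D395A (adjusted p = 0.0022) and -2.10 ± 0.11 in KO (adjusted p = 6.5e-09). Markers of embryonic stem cells were present in every library. Their summed level over 7 genes was 1870 to 1930 CPM in D395A, 4430 to 4450 CPM in KO, against 3830 to 3890 CPM in WT. For extraembryonic endoderm the sum over 6 markers was 24.2 to 25.5 CPM in D395A, 3.75 to 5.18 CPM in KO, against 8.35 to 9.34 CPM in WT, with Ttr at 0 counts in both mutant groups and Afp at 0 in D395A. For trophoblast it was 73.9 to 77.5 CPM in D395A, 52.5 to 55.6 CPM in KO, against 54.2 to 54.9 CPM in WT over 6 markers, Elf5 being at 0 in D395A. Sums for neural markers (43.1 to 44.4 CPM over 6 genes) lay in 1 narrow range in all groups, with Neurog2 and Dcx at 0 in WT. Fibroblast feeder markers summed to 3.47 to 7.39 CPM over 7 genes, with Col3a1 and Lum at 0 in KO and WT, Postn at 0 in KO and Dcn at 0 in WT. Blood markers summed to 0.303 to 0.565 CPM over 4 genes, with Hba-x at 0 in all 6 libraries, Ptprc at 0 in KO and WT and Hbb-y at 0 in WT. The part of these cell types in the results was not tested. In bulk RNA, fewer cells of a type and less RNA per cell cannot be told apart.

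In KO against WT, the question is how these genes differed in the knockout line. Almost the whole group was lower in KO. Of 40 members, 35 fell and 3 rose (Cebpb, Hspa5 and Cth), while 2 were not called (Phgdh and Aldh18a1). Over all genes tested, 66.2% were called, 32.6% lower and 33.6% higher. The median log2 fold change of the members was -0.82, against 0.01 over all genes. A fall of at least 2-fold was reached by 16 members, and by 10.6% of all genes. Cebpb was the 1 member with such a rise, which 13.7% of all genes had. All regulators but Cebpb, all 5 transporters and all 12 synthetases were among those that fell. Without genes on chromosomes 8 and 11, where many genes were lower in both mutant lines, and Y, 29 of the 34 remaining members fell and 3 rose.

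In D395A against WT, the question is how these genes differed in the line with the altered catalytic motif. Falls were again the most frequent change, but smaller, and Atf4 was not among them. Of 40 members, 28 fell and 4 rose (Cebpb, Hspa5, Aldh18a1 and Slc7a11), against 70.3% of all genes called, 34.0% lower and 36.3% higher. The 8 members not called were Atf4, Chac1, Sesn2, Vldlr, Psat1, Phgdh, Sars and Yars. The median was -0.44, against 0.02 over all genes. Only Nupr1 and Aars fell at least 2-fold, against 12.0% of all genes. Of the members on chromosomes 8 and 11, Xbp1 (-0.30), Herpud1 (-0.64), Slc7a5 (-0.27) and Aars (-0.86) remained below the medians of their chromosomes. Relative to theirs, Pycr1 stood at 0.14 and Gpt2 at -0.004. Both comparisons use the same WT libraries, so their shared direction is not independent.

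D395A against KO tests the difference between the mutant lines directly. Here 27 members were higher in D395A and 1 lower, and 12 were not called, against 50.4% of all genes called, 26.5% higher and 23.8% lower. A difference of at least 2-fold was called upward in 4 members and downward in 1, against 8.38% and 7.56% of all genes. The median difference was 0.34, with 0.04 over all genes. Among the 27, 18 were lower than WT in both lines and lay further below it in KO: Ddit4, Trib3, Xbp1, Herpud1, Asns, Psph, Shmt2, Mthfd2, Pycr1, Gpt2, Slc7a5, Slc7a3, Nars, Wars, Gars, Mars, Iars and Lars. Another 7 were lower than WT in KO and not called in D395A: Atf4, Chac1, Sesn2, Vldlr, Psat1, Sars and Yars. The share of all genes with either of these joint patterns was not determined. Cth was the member lower in D395A than in KO.

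**Figure D1:**
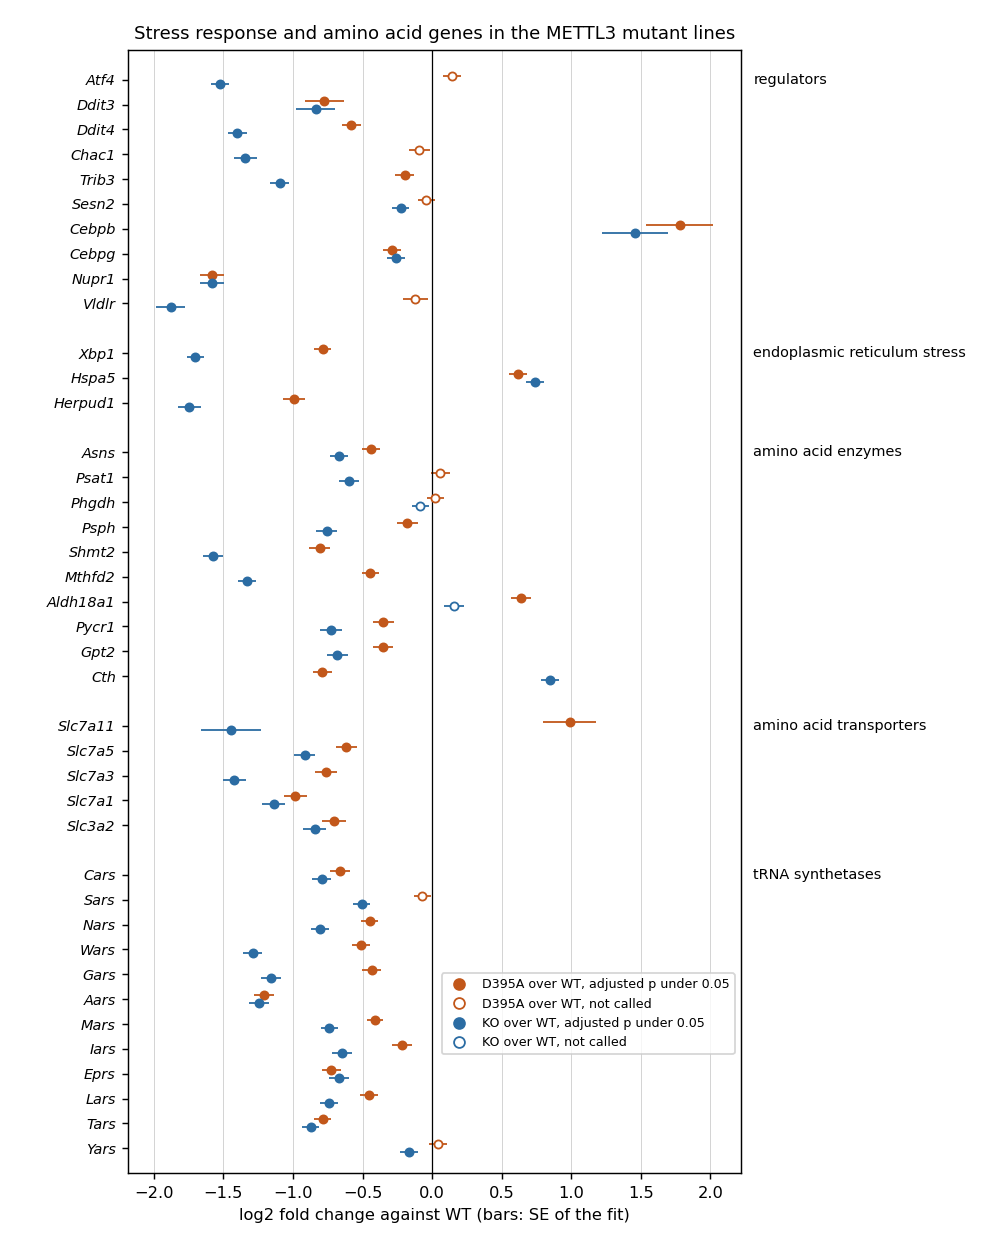
Log2 fold change against WT (x axis) of each of the 40 genes (rows, grouped by role), in D395A (orange) and KO (blue), with SE bars and open symbols where the adjusted p was not under 0.05. Atf4 sits at 0.14 in D395A and -1.53 in KO, while for Nupr1, and likewise for Aars, the D395A and KO values lie close together.

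Atf4, the factor at the centre of the response, was sharply lower in KO only. It averaged 407 ± 17 CPM in D395A (SD, n = 2), the second library standing at 419 CPM, with 130 and 127 CPM in KO, against 378 and 360 CPM in WT. The KO libraries lay far below the other 4, and both D395A libraries lay above both WT libraries. KO was at 0.347 times the WT level (-1.53 ± 0.07, adjusted p = 1.2e-09), whereas D395A stood at 0.14 ± 0.07 (adjusted p = 0.064). D395A exceeded KO by 1.67 ± 0.07 (adjusted p = 9.9e-10). The small rise in D395A was called by DESeq2 (0.13, adjusted p = 0.035) and with upper-quartile factors (0.14, adjusted p = 0.044). A stricter filter on low counts called it too (0.14, adjusted p = 0.048). The rise was 0.19 without D395A replicate 1 and ranged from 0.08 to 0.19 over all alternatives tried, most of which did not call it.

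Chac1, an enzyme that degrades glutathione, and Trib3, a pseudokinase that restrains ATF4, are well-known ATF4 targets. Chac1 was measured at 39.7 and 44.8 CPM in D395A, 18.5 and 17.1 CPM in KO, against 43.6 and 46.7 CPM in WT. Its KO libraries stood alone at the bottom, and those of D395A and WT overlapped. The change was -1.34 ± 0.08 in KO (adjusted p = 2e-08) and -0.09 ± 0.08 in D395A (adjusted p = 0.3). Trib3 had 50.5 and 56.1 CPM in D395A, 28.0 and 29.3 CPM in KO, against 61.9 and 60.6 CPM in WT. It fell in KO by 1.10 ± 0.07 (adjusted p = 3.3e-08). Its fall in D395A (-0.20 ± 0.07, adjusted p = 0.021) was not called without WT replicate 1 (-0.19, adjusted p = 0.11), WT replicate 2 (-0.22, adjusted p = 0.067) or D395A replicate 1 (-0.13, adjusted p = 0.13).

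Vldlr, a lipoprotein receptor that rises in endoplasmic reticulum stress, had a like pattern. Its libraries held 19.4 and 20.9 CPM in D395A, 6.08 and 5.85 CPM in KO, against 20.5 and 23.4 CPM in WT. KO was 0.272 times WT (-1.88 ± 0.10, adjusted p = 8.1e-09), the largest fall among the 40 genes there, and D395A was not called (-0.12 ± 0.09, adjusted p = 0.26). Ddit4, an inhibitor of mTORC1 that also responds to low oxygen, stood at 82.6 and 88.0 CPM in D395A, 49.5 and 47.3 CPM in KO, against 121 and 135 CPM in WT. All 3 groups were apart, with log2 fold changes of -0.58 ± 0.07 in D395A and -1.40 ± 0.07 in KO (adjusted p = 8e-06 and 4e-09).

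Nupr1, a small chromatin protein induced by stress, and Ddit3 (CHOP), a factor that promotes cell death under lasting stress, were lower in both lines. Nupr1 had 20.7 and 18.9 CPM in D395A, 20.2 and 19.2 CPM in KO, against 54.5 and 63.5 CPM in WT. The mutant libraries were interleaved and all lay below WT. The log2 fold change was -1.58 ± 0.09 in each line (adjusted p = 8e-09 in D395A and 7.9e-09 in KO), and the difference between the lines was 0.00 ± 0.09 (adjusted p = 0.99). Ddit3 stood at 5.37 and 5.90 CPM in D395A, 5.43 and 5.42 CPM in KO, against 8.65 and 10.7 CPM in WT. It fell by 0.78 ± 0.14 in D395A (adjusted p = 0.00034) and by 0.84 ± 0.14 in KO (adjusted p = 0.00018). Mars and another gene on the opposite strand overlap 4.73% of the exon bases of Ddit3, which in turn overlaps 1.99% of those of Mars. On the same strand, a further annotated entry with the symbol Ddit3 overlaps 6.13% of the exon bases of Ddit3.

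Of the C/EBP factors that can pair with ATF4, Cebpb rose in both lines and Cebpg fell slightly. Cebpb was uneven between libraries, with 17.7 and 11.1 CPM in D395A, 13.9 and 8.79 CPM in KO, against 3.78 and 4.49 CPM in WT. Both mutant groups lay wholly above WT. The rise was 1.78 ± 0.24 in D395A (adjusted p = 2.5e-05) and 1.46 ± 0.24 in KO (adjusted p = 0.00015). The difference of D395A from KO, 0.32 ± 0.22 (adjusted p = 0.24), depended on single libraries and on the filter: it was -0.03 without D395A replicate 1 (adjusted p = 0.92), 0.64 without D395A replicate 2 (adjusted p = 0.043), 0.29 with no filter on low counts (adjusted p = 0.043) and 0.68 without KO replicate 1 (adjusted p = 0.01). Exons of Tmem189 on the opposite strand overlap 20.7% of Cebpb, and the strand setting of the counting was not given in the sources used here. Reads in the overlap may thus have been counted for either gene or for neither. Cebpg averaged 44.9 ± 0.02 CPM in D395A, 45.9 ± 0.465 CPM in KO, against 54.9 ± 2.43 CPM in WT (SD, n = 2 each). Its fall was called in D395A (-0.29 ± 0.06, adjusted p = 0.0014) and in KO (-0.26 ± 0.06, adjusted p = 0.003). The call in KO was lost without WT replicate 2 (-0.21, adjusted p = 0.051). Sesn2, an inhibitor of mTORC1 that senses leucine and is also a p53 target, had 94.3 and 101 CPM in D395A, 87.5 and 84.2 CPM in KO, against 98.1 and 103 CPM in WT. It fell in KO (-0.23 ± 0.06, adjusted p = 0.0066), except without WT replicate 2 (-0.19, adjusted p = 0.092) or KO replicate 2 (-0.20, adjusted p = 0.056). It was 0.18 ± 0.06 higher in D395A than in KO (adjusted p = 0.028), a call lost without WT replicate 1 (0.18, adjusted p = 0.07), WT replicate 2 (0.18, adjusted p = 0.072), D395A replicate 2 (0.13, adjusted p = 0.12), KO replicate 1 (0.20, adjusted p = 0.065) or KO replicate 2 (0.15, adjusted p = 0.17), and with no filter on low counts (0.16, adjusted p = 0.058) or only these 4 libraries (0.15, adjusted p = 0.08).

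**Figure D2:**
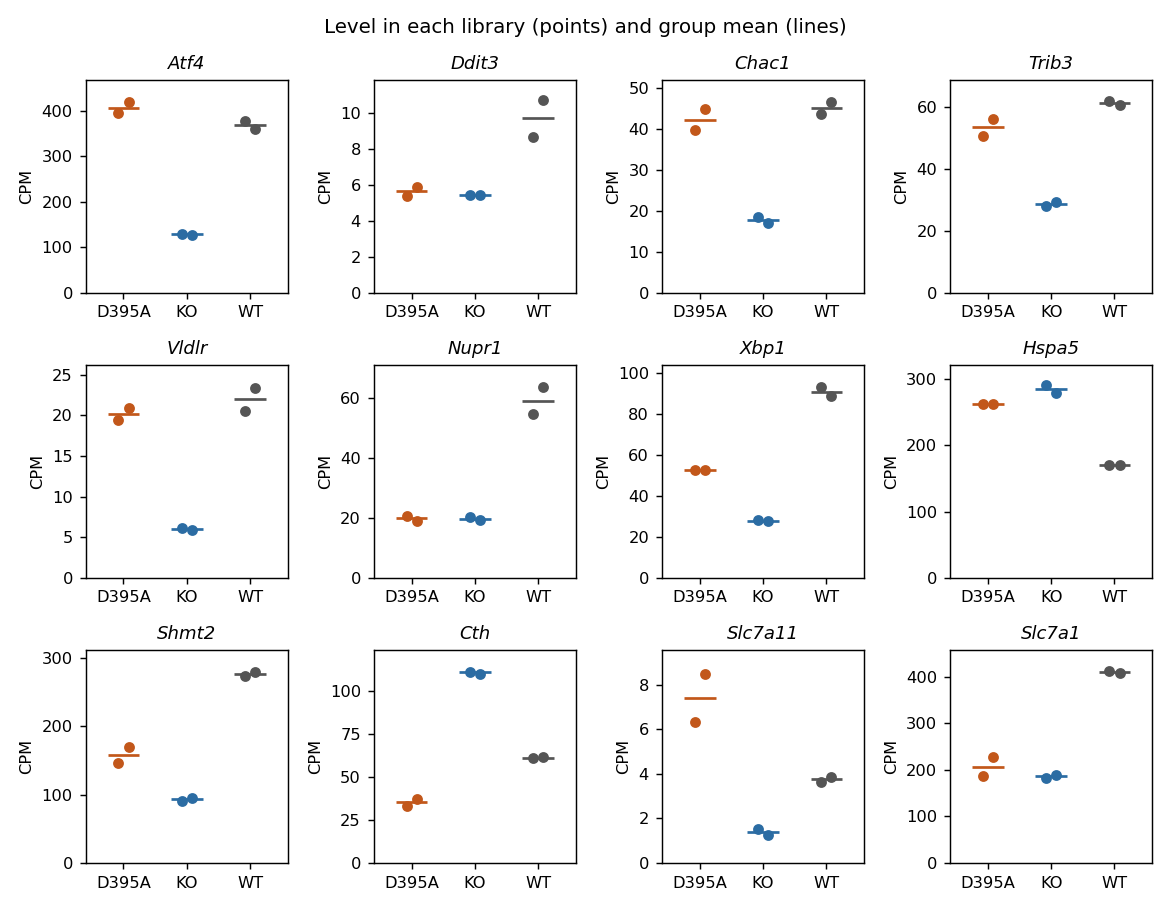
CPM (y axis, from 0) of 12 genes in each of the 6 libraries, with D395A, KO and WT side by side, points for libraries and lines for group means of 2 libraries. Atf4, Chac1 and Vldlr are low in KO alone, Nupr1, Ddit3 and Slc7a1 are low in both mutant groups, and Cth and Slc7a11 stand on opposite sides of WT in the mutant groups.

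The genes of endoplasmic reticulum stress split. Xbp1 encodes a factor of the unfolded protein response that is activated by splicing of its mRNA, which gene counts do not show. It stood at 52.6 and 52.7 CPM in D395A, 28.1 and 27.7 CPM in KO, against 92.9 and 88.8 CPM in WT. The groups were well apart, with log2 fold changes of -0.79 ± 0.06 in D395A and -1.70 ± 0.06 in KO (adjusted p = 1.5e-07 and 3.1e-10). Herpud1, which helps degrade misfolded proteins, had 20.3 and 21.6 CPM in D395A, 11.6 and 13.3 CPM in KO, against 42.0 and 41.4 CPM in WT. It fell, at log2 changes of -0.99 ± 0.08 in D395A and -1.75 ± 0.08 in KO (adjusted p = 2.4e-07 and 2.5e-09). Xbp1 lies on chromosome 11 and Herpud1 on chromosome 8. The median log2 fold change of all tested genes was -0.49 in D395A and -0.42 in KO on chromosome 11, and -0.35 in D395A and -0.48 in KO on chromosome 8. Relative to these medians Xbp1 was at -0.30 in D395A and -1.29 in KO, and Herpud1 at -0.64 in D395A and -1.27 in KO. Hspa5, the chaperone BiP, went the other way. It stood at 262 and 263 CPM in D395A, 292 and 279 CPM in KO, against 171 CPM in both WT libraries. The rise was 0.62 ± 0.06 in D395A and 0.74 ± 0.06 in KO (adjusted p = 1.7e-06 and 3.4e-07).

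Of 22 further endoplasmic reticulum stress genes, 13 fell and 4 rose in D395A, with a median of -0.38, where 34.0% of all genes were lower and 36.3% higher. In KO 12 fell and 4 rose, with a median of -0.23, where 32.6% of all genes were lower and 33.6% higher. Sdf2l1, a chaperone cofactor, averaged 8.18 ± 0.832 CPM in D395A, 10.9 ± 0.121 CPM in KO, against 19.5 ± 1.99 CPM in WT. Ern1, the sensor kinase that splices Xbp1 mRNA, had 12.6 and 11.7 CPM in D395A, 19.0 and 16.4 CPM in KO, against 26.5 and 27.0 CPM in WT. Both genes fell in both lines. Sdf2l1 was at -1.26 ± 0.11 in D395A and -0.83 ± 0.11 in KO. Ern1 was at -1.15 ± 0.09 in D395A and -0.59 ± 0.09 in KO, or -0.66 and -0.18 relative to the medians of chromosome 11.

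Among the enzymes, the mitochondrial folate pair fell most in KO. Shmt2, which takes a carbon unit from serine, stood at 146 and 169 CPM in D395A, 91.2 and 94.4 CPM in KO, against 274 and 279 CPM in WT. Mthfd2, the next enzyme of the route, stood at 127 and 135 CPM in D395A, 72.2 and 69.6 CPM in KO, against 180 and 177 CPM in WT. For both genes the groups were apart, with KO lowest and D395A between KO and WT. Shmt2 fell, at log2 changes of -0.81 ± 0.07 in D395A and -1.57 ± 0.08 in KO, and Mthfd2 at -0.44 ± 0.06 in D395A and -1.33 ± 0.06 in KO (adjusted p of 3.1e-05 or less). Shmt2 shares 1.03% of its exon bases with Ndufa4l2 on the opposite strand.

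The serine synthesis enzymes did not move as a block. Phgdh, which catalyses the entry step, averaged 126 ± 3.77 CPM in D395A, 117 ± 0.696 CPM in KO, against 124 ± 3.67 CPM in WT and was called in no comparison (0.02 ± 0.06 in D395A, adjusted p = 0.74, and -0.09 ± 0.06 in KO, adjusted p = 0.23). Psat1, the next step, had 481 and 517 CPM in D395A, 303 and 329 CPM in KO, against 480 and 477 CPM in WT. It fell in KO (-0.60 ± 0.07, adjusted p = 6.9e-06) and was not called in D395A (0.06 ± 0.07, adjusted p = 0.45). Psph, the last step, averaged 32.0 ± 2.41 CPM in D395A, 21.3 ± 0.329 CPM in KO, against 36.1 ± 1.11 CPM in WT. Its fall in KO was 0.76 ± 0.08 (adjusted p = 1.8e-06). The fall in D395A was -0.18 ± 0.07 (adjusted p = 0.047) and was lost without either WT replicate (-0.22 and -0.15, adjusted p = 0.079 and 0.2), without D395A replicate 2 (-0.10, adjusted p = 0.3), without either KO replicate (-0.18, adjusted p = 0.054 and 0.053), by DESeq2 (adjusted p = 0.1) and with upper-quartile factors (adjusted p = 0.052). Exons of Cct6a on the opposite strand overlap 10.4% of Psph.

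Asns, asparagine synthetase, had the highest level per exon length of the 40 genes, at 236 CPM per kb in D395A, 201 in KO and 319 in WT. It averaged 644 ± 10.5 CPM in D395A, 549 ± 19.0 CPM in KO, against 873 ± 10.6 CPM in WT. Its log2 fold changes were -0.44 ± 0.06 in D395A and -0.67 ± 0.06 in KO (adjusted p = 4.9e-05 and 1.2e-06). D395A stood 0.23 ± 0.06 above KO (adjusted p = 0.0095), but 0.19 without KO replicate 1 (adjusted p = 0.1) and 0.20 with only these 4 libraries in the fit (adjusted p = 0.051). The proline enzymes differed from each other. Aldh18a1, the entry step, averaged 263 ± 21.3 CPM in D395A, 188 ± 9.31 CPM in KO, against 169 ± 4.96 CPM in WT, a rise of 0.64 ± 0.07 in D395A (adjusted p = 5.2e-06). In KO it stood at 0.16 ± 0.07 (adjusted p = 0.076), a value called without D395A replicate 1 or 2 (0.16, adjusted p = 0.015 and 0.016), with only the 4 libraries compared (0.17, adjusted p = 0.0034), with no filter on low counts (0.17, adjusted p = 0.036) and with a stricter one (0.16, adjusted p = 0.038). Pycr1, the final step, averaged 58.8 ± 7.08 CPM in D395A, 45.4 ± 1.19 CPM in KO, against 75.3 ± 2.39 CPM in WT, with log2 fold changes of -0.35 ± 0.08 in D395A and -0.73 ± 0.08 in KO (adjusted p = 0.0014 and 3.5e-06). Its excess in D395A over KO, 0.38 ± 0.08 (adjusted p = 0.0017), was 0.24 without D395A replicate 2 (adjusted p = 0.02). Gpt2, a mitochondrial alanine aminotransferase, averaged 214 ± 21.1 CPM in D395A, 171 ± 6.94 CPM in KO, against 274 ± 5.76 CPM in WT, with log2 fold changes of -0.35 ± 0.07 in D395A and -0.68 ± 0.08 in KO (adjusted p = 0.00096 and 4.2e-06). Pycr1 is on chromosome 11 and Gpt2 on chromosome 8. Relative to the medians of their chromosomes, Pycr1 was at 0.14 in D395A and -0.31 in KO, and Gpt2 at 0.00 in D395A and -0.20 in KO.

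Cth, which makes cysteine from cystathionine, went opposite ways in the mutant lines and was singled out after its values were seen. It had 33.3 and 37.5 CPM in D395A, 111 and 110 CPM in KO, against 61.0 and 61.9 CPM in WT. No groups overlapped. Cth fell in D395A by 0.79 ± 0.07 (adjusted p = 5.5e-07) and rose in KO by 0.85 ± 0.07 (adjusted p = 1.7e-07), and D395A was 0.321 times KO (-1.64 ± 0.07, adjusted p = 1.5e-09). Of 14 further folate and serine genes, 10 fell and 3 rose in D395A, with a median of -0.34. In KO 9 fell and 1 rose, with a median of -0.39. Of all genes, 34.0% were lower and 36.3% higher in D395A, and 32.6% lower and 33.6% higher in KO. Some of the 14 are also counted below among the further genes known to respond to ATF4. Cbs, which makes cystathionine, had 5.88 and 6.32 CPM in D395A, 11.7 and 13.3 CPM in KO, against 28.5 and 31.0 CPM in WT. It fell in both lines, at log2 changes of -2.28 ± 0.10 in D395A and -1.25 ± 0.09 in KO. Srr, serine racemase, rose in D395A to 32.1 and 28.2 CPM, against 7.63 ± 0.891 CPM in WT (1.98 ± 0.37, adjusted p = 0.00038). Its KO libraries disagreed, with 18.8 and 5.07 CPM, and 30.0% of its exon bases overlap genes on the opposite strand.

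The transporters fell together in KO, and all but Slc7a11 did so in D395A. Among all genes tested, 32.6% were lower in KO and 34.0% in D395A. Their summed level over 5 genes was 807.7 and 944.5 CPM in D395A, 715.9 and 770.9 CPM in KO, against 1475 and 1452 CPM in WT. Slc7a1, the main carrier of arginine and lysine, stood at 186 and 227 CPM in D395A, 183 and 189 CPM in KO, against 412 and 407 CPM in WT. Mutant libraries overlapped each other and were far below WT, with log2 fold changes of -0.98 ± 0.08 in D395A and -1.14 ± 0.08 in KO (adjusted p = 3.8e-07 and 1.1e-07). The difference between the lines, 0.16 ± 0.08 (adjusted p = 0.14), was called only without D395A replicate 1 (0.29, adjusted p = 0.00085). Slc7a3, another carrier of cationic amino acids, had 43.2 and 48.9 CPM in D395A, 27.3 and 31.3 CPM in KO, against 80.6 and 76.3 CPM in WT. It fell in both lines, at -0.76 ± 0.08 in D395A and -1.42 ± 0.08 in KO (adjusted p = 2.6e-06 and 1.3e-08).

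Slc7a11, the cystine importer, had the lowest level per exon length of the transporters (0.531 CPM per kb in D395A, 0.0986 in KO and 0.269 in WT) and went opposite ways. It had 6.30 and 8.48 CPM in D395A, 1.51 and 1.24 CPM in KO, against 3.64 and 3.86 CPM in WT. The groups did not overlap, with D395A highest and KO lowest. It rose in D395A by 0.99 ± 0.19 (adjusted p = 5e-04) and fell in KO (-1.45 ± 0.22, adjusted p = 7.2e-05), and D395A was 5.41 times KO (2.44 ± 0.21, adjusted p = 1.1e-06). Slc3a2 encodes the heavy chain that SLC7A11 and SLC7A5 both need, and Slc7a5 a carrier of leucine and other large amino acids. Slc3a2 averaged 270 ± 35.0 CPM in D395A, 245 ± 12.4 CPM in KO, against 441 ± 1.21 CPM in WT, at -0.71 ± 0.08 in D395A and -0.84 ± 0.08 in KO (adjusted p = 7.9e-06 and 1.7e-06). D395A and KO differed in Slc3a2 by 0.14 ± 0.08 (adjusted p = 0.19), by 0.27 without D395A replicate 1 (adjusted p = 0.0024) and by 0.00 without D395A replicate 2 (adjusted p = 0.96). Slc7a5, on chromosome 8, averaged 346 ± 27.6 CPM in D395A, 282 ± 19.4 CPM in KO, against 532 ± 10.9 CPM in WT. The gene fell, with log2 values of -0.62 ± 0.08 in D395A and -0.92 ± 0.08 in KO, or -0.27 and -0.44 relative to the median of its chromosome. Its excess in D395A over KO, 0.30 ± 0.08 (adjusted p = 0.0057), was not called without KO replicate 1 (0.22, adjusted p = 0.07).

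**Figure D3:**
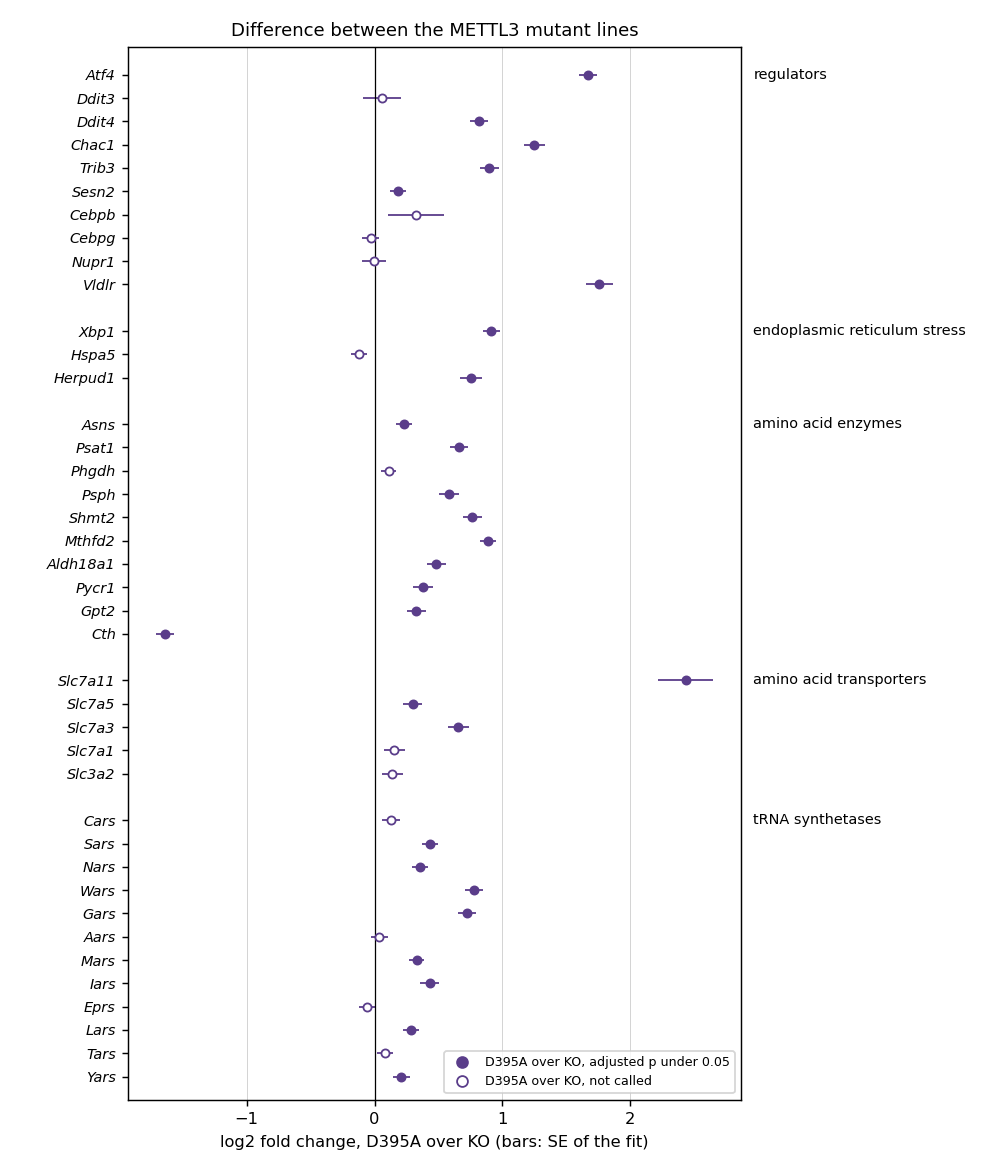
Log2 fold change of D395A over KO (x axis) for the 40 genes, grouped by role, with SE bars and open symbols where the adjusted p was not under 0.05. The 27 called values above 0 reach 2.44 for Slc7a11, and Cth alone is called below 0, at -1.64.

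The cytosolic tRNA synthetases, which charge tRNAs with amino acids, mostly fell. All 12 fell in KO, 10 fell in D395A, and none rose in either line. Over all genes tested, 32.6% were lower and 33.6% higher in KO, and 34.0% lower and 36.3% higher in D395A. Their summed level was 2911 and 3139 CPM in D395A, 2470 and 2507 CPM in KO, against 4392 and 4408 CPM in WT. Medians of the 12 log2 fold changes were -0.45 in D395A and -0.77 in KO. Wars, the tryptophan enzyme, had 73.3 and 79.1 CPM in D395A, 42.6 and 46.3 CPM in KO, against 109 and 108 CPM in WT. Gars, the glycine enzyme, had 402 and 432 CPM in D395A, 244 and 261 CPM in KO, against 568 and 560 CPM in WT. For both, KO was lowest and D395A lay between, without overlap. Wars fell, at log2 changes of -0.51 ± 0.07 in D395A and -1.29 ± 0.07 in KO (adjusted p = 1.7e-05 and 5.3e-09), and Gars at -0.43 ± 0.07 in D395A and -1.16 ± 0.07 in KO (adjusted p = 8.8e-05 and 1.6e-08). Aars, the alanine enzyme, was low in both lines, with 306 and 336 CPM in D395A, 309 and 317 CPM in KO, against 751 and 733 CPM in WT. It fell, at log2 changes of -1.21 ± 0.07 in D395A and -1.25 ± 0.07 in KO (adjusted p = 9.4e-09 and 8.3e-09), or -0.86 and -0.77 relative to the medians of chromosome 8, where it lies. Exosc6 on the same strand covers 14.3% of its exon bases.

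Cars, Eprs and Tars, the cysteine, glutamate-proline and threonine enzymes, likewise fell in both lines without a called difference between them. Their log2 fold changes were -0.66, -0.73 and -0.79 in D395A and -0.80, -0.67 and -0.87 in KO. Eprs was called lower in D395A than in KO without D395A replicate 2 (-0.14, adjusted p = 0.038), against -0.06 ± 0.07 with all libraries (adjusted p = 0.53) and 0.02 without D395A replicate 1 (adjusted p = 0.78). Nars, Mars, Iars and Lars, the asparagine, methionine, isoleucine and leucine enzymes, fell in both lines, at log2 changes of -0.45, -0.41, -0.22 and -0.46 in D395A and -0.80, -0.74, -0.65 and -0.74 in KO. The fall of Iars in D395A (-0.22 ± 0.07, adjusted p = 0.019) was not called without WT replicate 1 (-0.23, adjusted p = 0.1), WT replicate 2 (-0.22, adjusted p = 0.12) or D395A replicate 1 (-0.13, adjusted p = 0.055). Sars, the serine enzyme, fell in KO (-0.51 ± 0.06, adjusted p = 1.1e-05) and was not called in D395A (-0.07 ± 0.06, adjusted p = 0.31). Yars, the tyrosine enzyme, had the smallest fold changes of the 12 against WT. It averaged 225 ± 7.77 CPM in D395A, 195 ± 6.19 CPM in KO, against 219 ± 4.03 CPM in WT. Its fall in KO (-0.17 ± 0.06, adjusted p = 0.032) was lost without any 1 of the WT or KO libraries, at -0.20 to -0.13 with adjusted p between 0.062 and 0.21, and with no filter on low counts (-0.16, adjusted p = 0.05). Its excess in D395A over KO (0.21 ± 0.06, adjusted p = 0.014) was lost without WT replicate 1 (0.21, adjusted p = 0.053), WT replicate 2 (0.21, adjusted p = 0.055) or KO replicate 1 (0.17, adjusted p = 0.13), and with only these 4 libraries (0.18, adjusted p = 0.054).

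Synthetases outside the 40 genes give a point of comparison. Of 8 other cytosolic ones, 6 fell in D395A and 7 in KO, none rose in either, and the medians were -0.74 in D395A and -0.69 in KO. Of all genes, 34.0% were lower and 36.3% higher in D395A, and 32.6% lower and 33.6% higher in KO. Kars, the lysine enzyme on chromosome 8, fell, at log2 changes of -1.15 ± 0.08 in D395A and -1.06 ± 0.07 in KO, or -0.80 and -0.58 relative to the medians of its chromosome. Rars, the arginine enzyme on chromosome 11, fell, at log2 changes of -1.11 ± 0.06 in D395A and -0.80 ± 0.06 in KO, or -0.62 and -0.38 relative to the medians of its chromosome. Of the 17 mitochondrial synthetases, which the nucleus encodes for protein synthesis inside mitochondria, 8 fell and 5 rose in D395A, and 8 fell and 7 rose in KO. Their median was -0.05 in each line. The shares of all genes to set beside these counts are those given above for the 8 cytosolic genes. Wars2, the mitochondrial tryptophan enzyme, rose by 1.42 ± 0.11 in D395A and 1.80 ± 0.11 in KO. The difference between the cytosolic and mitochondrial sets was not tested.

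**Figure D4:**
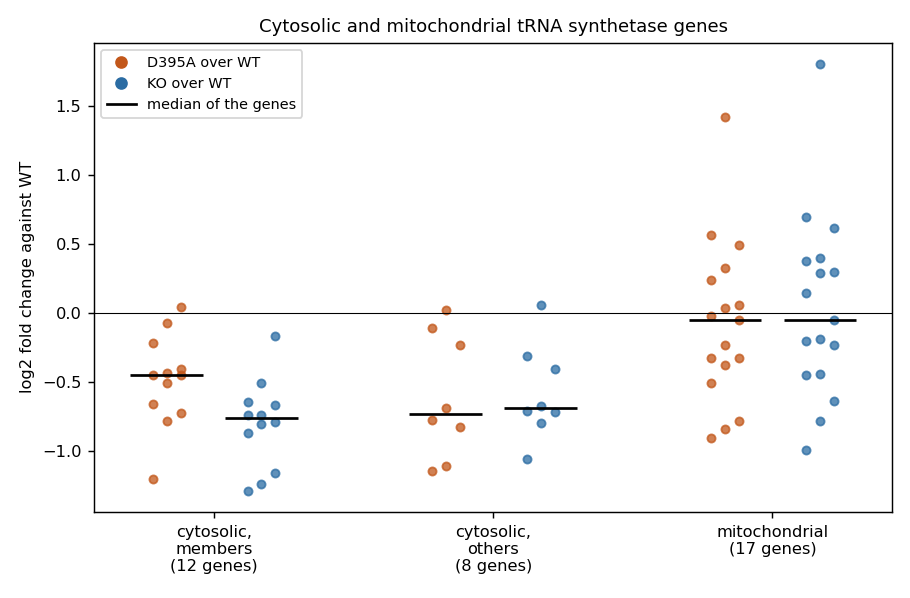
Log2 fold change against WT (y axis) of the 12 cytosolic tRNA synthetases among the 40 genes, 8 other cytosolic and 17 mitochondrial ones, in D395A (orange) and KO (blue), with black lines for medians. Cytosolic medians lie between -0.77 and -0.45, and both mitochondrial medians at -0.05.

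Upstream of ATF4 act kinases, initiation factors and their regulators. Of 18 such genes, 9 fell and 3 rose in D395A, against 34.0% of all genes lower and 36.3% higher, with a median of -0.16. In KO 10 fell and 3 rose, against 32.6% and 33.6% of all genes, with a median of -0.23. Eif2b5, a subunit of the exchange factor that phosphorylated eIF2 inhibits, had 82.9 and 81.6 CPM in D395A, 126 and 134 CPM in KO, against 206 and 205 CPM in WT. Its log2 fold changes were -1.32 ± 0.06 in D395A and -0.67 ± 0.06 in KO, with D395A against KO at -0.66 ± 0.06 (adjusted p = 2.2e-06). Ppp1r15a (GADD34), the phosphatase subunit that resets eIF2, had 18.5 and 17.1 CPM in D395A, 18.4 and 20.5 CPM in KO, against 41.8 and 37.8 CPM in WT. It fell in both lines, at -1.17 ± 0.09 in D395A and -1.03 ± 0.08 in KO.

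Of 25 further genes known to respond to ATF4, 13 fell and 7 rose in D395A, with a median of -0.25, where 34.0% of all genes were lower and 36.3% higher. In KO 17 fell and 3 rose, with a median of -0.56, where 32.6% of all genes were lower and 33.6% higher. In D395A against KO, 16 were higher and 3 lower, against the 26.5% and 23.8% of all genes given above. Some of the 25 were also counted among the folate and serine genes above, so these tallies are not separate. Stc2, a secreted glycoprotein on chromosome 11, had 7.79 and 7.29 CPM in D395A, 1.36 and 1.61 CPM in KO, against 21.8 and 24.6 CPM in WT. The gene fell, with log2 values of -1.62 ± 0.11 in D395A and -3.96 ± 0.14 in KO, or -1.14 and -3.54 relative to the medians of chromosome 11, with D395A above KO by 2.33 ± 0.15 (adjusted p = 6.5e-08). Ndrg1, which also responds to low oxygen, had 6.22 and 8.43 CPM in D395A, 8.90 and 9.45 CPM in KO, against 52.9 and 59.1 CPM in WT, with log2 fold changes of -2.91 ± 0.12 in D395A and -2.61 ± 0.11 in KO.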

How the data were processed

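RNA of 6 libraries, 2 per group, was measured by sequencing of ribosomal RNA-depleted total RNA. The authors deposited raw counts per gene symbol, 1 table per library. Per the submitters' processing notes, the tools were Trimmomatic 0.36, STAR 2.7 and HTSeq 0.11.2 with mm10. The strand setting was not given in the sources used here, nor was the annotation release. HTSeq summary lines, 29.0% to 44.2% of the file totals, were left out. From the counts, edgeR 4.0.16 in R 4.3.3 gave filterByExpr, TMM factors and the quasi-likelihood F test with all 6 libraries in 1 fit and no covariate. SDs are over 2 libraries. Whether libraries of a group are separate cultures is not stated, so p-values measure only the spread between libraries. Alternatives used DESeq2 1.42.0, limma 3.58.1, other scalings, filters and left-out libraries. The code of the fit was also run on simulated counts, which cannot show whether its scaling and spread suit these data. Positions and overlaps came from GENCODE M21 (GRCm38). Members and lists were chosen with earlier results of these data known. Outside the rule that follows, values per library are also printed for the members Cth, Hspa5, Psat1 and Sesn2. By rule, they are given for Atf4, Ddit3 and members called with a change of at least 2-fold in a comparison with WT. The rule adds up to 2 genes of each other list (the largest called changes at a mean of at least 2 CPM). A gene that this rule also names is not reported here.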

Additional observations from a re-analysis of the deposited data

Results flagged for a closer look

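A pair of members were called in opposite directions in the mutant lines, with the difference between the lines called as well. The share of all genes with such a pattern was not determined. Slc7a11, the cystine importer, was higher in D395A than in KO by 2.44 ± 0.21 on the log2 scale, with both D395A libraries above and both KO libraries below WT. Cth, the enzyme that makes cysteine, was lower in D395A than in KO, at -1.64 ± 0.07, with both D395A libraries below and both KO libraries above WT. Over all alternatives that give a p-value, the difference ranged from 2.19 to 2.62 for Slc7a11 (highest adjusted p = 6.2e-05) and from -1.74 to -1.56 for Cth (highest adjusted p = 6.1e-07).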

How the results depend on the processing

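Counts of called members stayed within 1.5 times of those reported, except for members lower in D395A than in KO: 1 with all libraries, 2 by DESeq2 (Hspa5 joined) and 1 to 2 with 1 library left out. Leaving out 1 library gave 32 to 35 lower and 3 to 4 higher for KO against WT, 25 to 27 and 4 to 5 for D395A against WT, and 24 to 29 higher for D395A against KO. Other scalings moved the median of all genes by under 0.1. The replicate numbers are not stated to mark a shared batch, and libraries of the same number deviated with correlations of 0.0141 (KO and WT), 0.00964 (D395A and WT) and -0.21 (D395A and KO). With the replicate block, 35 members were lower and 3 higher for KO against WT, 27 and 4 for D395A against WT (Psph was lost, -0.18, adjusted p = 0.051), and 27 higher and 1 lower for D395A against KO. With only the 4 libraries of that comparison, 24 were higher and 1 lower, and with crossed numbers as well, tried after seeing the data, 23 and 1.

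Of called values, Pycr1 and Asns turned sign, both relative to the median of their chromosome. Without genes on chromosomes 8, 11 and Y, D395A against WT gave -0.007 for Psat1, -0.043 for Phgdh and -0.024 for Yars. Relative to the median of its chromosome, Pycr1 stood at 0.139, Psat1 at -0.218, Phgdh at -0.1 and Yars at -0.046 in D395A against WT, and Asns at -0.008, Ddit3 at -0.167 and Aars at -0.079 in D395A against KO. Nupr1 was 0.004 in D395A against KO with upper-quartile factors. With 1 library left out, D395A against WT ranged from -0.091 to 0.005 for Sesn2 and from -0.01 to 0.053 for Phgdh. D395A against KO then ranged from -0.019 to 0.123 for Ddit3, -0.033 to 0.68 for Cebpb, -0.06 to 0.063 for Nupr1, -0.004 to 0.265 for Slc3a2, -0.036 to 0.103 for Aars and -0.136 to 0.018 for Eprs. The cause was not tested. No sign turned among the called or uncalled members for KO against WT under the alternatives counted here, apart from Aldh18a1 relative to its chromosome (-0.013). With 2 libraries per group, small differences cannot be resolved.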
